A study of Mus musculus with 4 samples.

Results

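Constant methylcytosine-like sites were the autosomal CCGG sites of the mouse left ventricle whose signal looked methylated, and not hydroxymethylated, in every sample measured. A site qualified when it was listed in all 4 samples with a mean MspI signal of 20 or more, and when in each sample the ratio of HpaII to MspI signal was 0.2 or less and the ratio of C+mC to MspI signal was 0.8 or more. Of 1110575 sites listed in any sample, 1070814 were autosomal, 967498 of these were listed in all 4 samples, and 682441 also reached the MspI minimum and are called eligible. The rule kept 1248 of them, 0.183% of the eligible sites. The members were thus chosen by the HpaII/MspI ratio, the C+mC/MspI ratio and the MspI signal of these same samples, so their values are a description and nothing is tested with them.

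The 4 samples were infarcted and non-infarcted left ventricle of Neil3-null (Neil3-/-) mice and infarcted and non-infarcted left ventricle of wild-type mice, 1 sample per group. All mice were C57BL/6, were 8 weeks old and had an induced myocardial infarction 3 days earlier, so the non-infarcted tissue also came from injured hearts. Neil3 is a DNA glycosylase that removes oxidized bases. The sources used here do not give the number of animals behind a sample or whether infarcted and non-infarcted tissue came from the same hearts. The Neil3 gene held 11 eligible sites and no member.

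HMST-seq reads short tags beside CCGG sites after digestion with enzymes that share this motif. HpaII does not cut a site whose inner cytosine is methylated or hydroxymethylated, and its library is named C. MspI cuts the site in all these states and gives the C+mC+hmC library. Glucosylation protects 5-hydroxymethylcytosine from MspI, so MspI after glucosylation gives the C+mC library, and its ratio to MspI is written C+mC/MspI. In mammalian genomes most CpG sites in gene bodies and between genes carry 5-methylcytosine, while the dense CpG islands at gene starts are usually free of it. 5-Hydroxymethylcytosine is made from 5-methylcytosine by the Tet enzymes and is found in the gene bodies of differentiated tissues such as heart.

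A gene start that carries a member was rare, and the 2 such promoters are shown here beside one of the opposite kind. Of 31396 promoter windows on 18 autosomes, each reaching from 250 bases before to 50 bases after a start, 8879 held an eligible site, 7519 held an unmodified-like site and 2 held a member. Unmodified-like means a HpaII/MspI ratio of 0.8 or more in all 4 samples. The windows are from RefSeq on GRCm38.p6, each 5′ to 3′ on the strand of its gene. Capitals mark the CCGG of the member in the first pair and of the 6 unmodified-like sites in the third. The first is Gm39637, a long noncoding RNA gene, at chr1:45724429-45724728 on the minus strand. The second is Naip1, a gene of the NLR apoptosis inhibitory protein family that senses bacterial proteins, at chr13:100452815-100453114 on the minus strand. The third is Ndufaf4, an assembly factor of mitochondrial complex I, at chr4:24897833-24898132 on the plus strand, a window with the highest number of unmodified-like sites.
Gm39637: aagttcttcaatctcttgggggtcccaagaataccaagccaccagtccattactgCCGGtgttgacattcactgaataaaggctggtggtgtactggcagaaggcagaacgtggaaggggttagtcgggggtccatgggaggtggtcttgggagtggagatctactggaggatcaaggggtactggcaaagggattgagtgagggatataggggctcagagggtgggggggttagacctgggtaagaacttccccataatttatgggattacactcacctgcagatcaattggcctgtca
Naip1: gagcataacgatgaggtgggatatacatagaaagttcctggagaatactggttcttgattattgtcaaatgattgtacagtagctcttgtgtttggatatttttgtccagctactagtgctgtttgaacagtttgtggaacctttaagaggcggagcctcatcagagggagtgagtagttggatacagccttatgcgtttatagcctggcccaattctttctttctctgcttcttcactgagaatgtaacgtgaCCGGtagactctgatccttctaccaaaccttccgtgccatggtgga
Ndufaf4: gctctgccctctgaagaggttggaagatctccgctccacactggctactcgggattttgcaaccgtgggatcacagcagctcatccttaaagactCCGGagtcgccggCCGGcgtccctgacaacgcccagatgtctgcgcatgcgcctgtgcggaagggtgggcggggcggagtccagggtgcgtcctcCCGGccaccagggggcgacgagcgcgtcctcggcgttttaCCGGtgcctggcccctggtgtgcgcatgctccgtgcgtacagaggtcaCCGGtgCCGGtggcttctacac
The Gm39637 window had 3 CpG and 52% G+C and the Naip1 window 6 CpG and 43.7% G+C, against 28 CpG and 66% G+C in the Ndufaf4 window. Over all windows with an eligible site the median was 17 CpG and 59% G+C.

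The Naip1 member at chr13:100452857-100452860 lay 4 bases after the start. Its HpaII/MspI ratio was 0.0740 and 0.109 in infarcted and non-infarcted Neil3-null tissue and 0.167 and 0.105 in infarcted and non-infarcted wild-type tissue. Its C+mC/MspI ratio was 1.09, 0.878, 0.827 and 1.07 in the same order. Naip1 has close copies beside it in the genome, and the sources used here do not say how tags matching several copies were treated, so its values are uncertain. The Gm39637 member at chr1:45724670-45724673 lay 195 bases before the start, with HpaII/MspI ratios of 0.179 and 0.185 in infarcted and non-infarcted Neil3-null tissue and of 0.0596 and 0.0670 in infarcted and non-infarcted wild-type tissue. At the Ndufaf4 site 20 bases before the start the ratio was 1.98 and 2.31 in infarcted and non-infarcted Neil3-null tissue and 2.17 and 3.04 in infarcted and non-infarcted wild-type tissue.

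The values at members describe how far the rule set them apart. The median HpaII/MspI ratio of members was 0.124 in infarcted Neil3-null, 0.130 in non-infarcted Neil3-null, 0.118 in infarcted wild-type and 0.124 in non-infarcted wild-type tissue, against 0.741, 0.753, 0.741 and 0.727 at the other eligible sites. The median C+mC/MspI ratio of members was 1.12, 1.07, 1.15 and 1.04 in the same order, against 0.907, 0.893, 0.899 and 0.856 at the other eligible sites. Median MspI signal was 63.6, 62.8, 54.7 and 65.0 at members, against 43.8, 43.5, 36.3 and 45.2 at the others. The medians of the 4 samples lay close together. These ratios are relative values and not shares of molecules: at the ends of housekeeping genes, which are unmethylated in most tissues, the median HpaII/MspI ratio was 1.81, 1.78, 1.997 and 1.81.

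**Figure D1:**
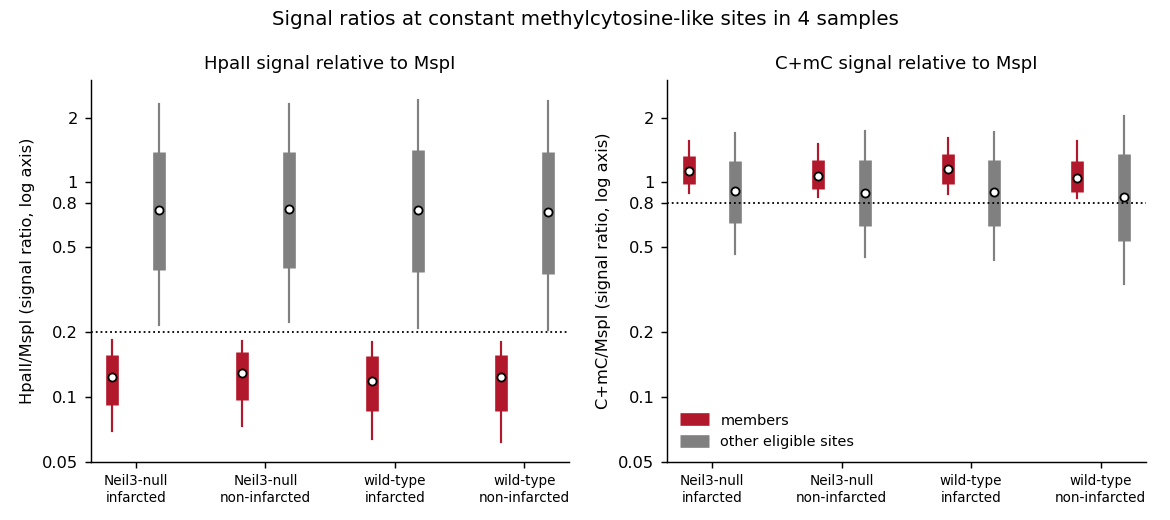
HpaII/MspI (left) and C+mC/MspI (right) signal ratios in each of the 4 samples, on log axes, for members and for the other eligible sites. Points are medians, thick bars run from the 25th to the 75th percentile and thin lines from the 10th to the 90th; dotted lines mark the limits of the rule at 0.2 and 0.8, and member medians of HpaII/MspI lie between 0.118 and 0.130 in all 4 samples.

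Passing in every sample was uncommon among sites that passed in one. Both limits were met by 19782 eligible sites in infarcted Neil3-null, 15670 in non-infarcted Neil3-null, 21193 in infarcted wild-type and 13240 in non-infarcted wild-type tissue. By the number of samples in which they passed, 31925 sites passed in 1, 10466 in 2, 4012 in 3 and 1248 in all 4. Of the 4012 sites that missed in 1 sample, 1479 missed in non-infarcted wild-type tissue, 857 of them on the C+mC limit alone, against 721 to 1050 that missed in each other sample. The C+mC library of non-infarcted wild-type tissue had the widest spread, with 10th and 90th percentiles of C+mC/MspI of 0.337 and 2.03 at the other eligible sites. Its part in the membership was not tested. Members would number 1969 without infarcted Neil3-null, 2298 without non-infarcted Neil3-null, 2010 without infarcted wild-type and 2727 without non-infarcted wild-type tissue, so each sample took part in setting the count.

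Many members lay near the limits. The largest HpaII/MspI ratio of the 4 samples was between 0.18 and 0.2 in 436 members (34.9%), and 554 sites that met the C+mC limit missed with a largest ratio between 0.2 and 0.22. The smallest C+mC/MspI ratio was between 0.8 and 0.85 in 342 members (27.4%), and 411 sites that met the HpaII limit missed with a smallest ratio between 0.75 and 0.8. In 49 members (3.93%) every HpaII/MspI ratio was 0.1 or less. The 5 members with the lowest ratios included sites in Lrsam1, a ubiquitin ligase, and Cdon, a coreceptor of Hedgehog signalling. The Lrsam1 site at chr2:32955057-32955060 had HpaII signals of 3.91 and 4.02 in infarcted and non-infarcted Neil3-null tissue and 3.49 and 5.66 in infarcted and non-infarcted wild-type tissue, beside MspI signals of 99.7, 106, 90.7 and 121.

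Low HpaII signals fell into separate bands, which set how finely the ratio can be read. The lowest band had a median of 4.22 in infarcted Neil3-null, 4.49 in non-infarcted Neil3-null, 3.56 in infarcted wild-type and 3.09 in non-infarcted wild-type tissue, and the next band 7.77, 8.02, 6.99 and 6.13. Of the members, 33.7%, 34.7%, 41.9% and 22.1% lay in the lowest band in these samples, against 3.36%, 3.29%, 3.83% and 1.85% of the other eligible sites. No deposited value was 0, and within each sample all 3 libraries listed the same number of sites. How a site without any HpaII signal would appear is unknown, so fully methylated sites may be missing from the list. The shares of members and of unmodified-like sites are therefore shares of eligible sites, and not of all CCGG sites in the genome. At the MspI minimum of 20 a ratio of 0.2 is a HpaII signal near this lowest band, so near that minimum a site passed only with a HpaII signal in this band. Members were 0.0577% of the eligible sites with a mean MspI from 20 to below 40, 0.266% from 40 to below 80, 0.326% from 80 to below 160 and 0.880% from 160 up. The shares in gene spans, near gene ends and with another listed site within 500 bp are therefore also given within these classes of MspI signal. The courses by distance to a start, along genes, by gene length and by number of nearby sites were not computed within them.

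Members were set beside 2 other kinds of site to show where they differ. Of the 19933 eligible sites that met the HpaII limit in all 4 samples, the 1248 members were 6.26%. A further 4615 (23.2%) had a C+mC/MspI ratio of 0.5 or less in all 4 samples, the pattern of sites with 5-hydroxymethylcytosine, and are called low C+mC sites. The remaining 14070 (70.6%) met neither C+mC limit in all samples. The unmodified-like sites numbered 244727. All 3 kinds share the same libraries, and both ratios share the MspI signal as their denominator.

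Members lay inside genes more often, and at gene starts less often, than the other eligible sites. Of the members 62.7% lay in the span of a protein-coding gene, against 53.3% of the other eligible sites, 60.3% of low C+mC sites and 54.7% of unmodified-like sites. The share of members was the higher on 17 of 19 autosomes. Within 1 kb of either end of a protein-coding gene lay 4.89% of members and 7.76% of the other eligible sites, with members lower on 18 of 19 autosomes. Low C+mC sites were at 2.97% there and unmodified-like sites at 14.8%. All sites that met the HpaII limit in the 4 samples were at 60.3% in gene spans and 3.31% near gene ends. The differences from the other eligible sites were thus not particular to members. The gene table gives the span of a gene and not its exons, so members were not sorted into exons, introns and untranslated regions.

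Distance to the nearest transcription start gave the same order. Within 1 kb of a start lay 24 of 1213 members (1.98%) on the 18 autosomes whose starts were used, against 6.62% of the other eligible sites. Members were lower on 17 of these 18 autosomes. Low C+mC sites were at 1.71% and unmodified-like sites at 14.1%. All sites that met the HpaII limit were at 1.74%, so the low share near starts was not particular to members. Within 500 bp of a start, members were 9.82% of the sites that met the HpaII limit. From over 500 to 1000 bp they were 4.68% of them, beside 6.26% over all autosomes. Members were 0.0567% of eligible sites within 500 bp of a start and 0.0520% from over 500 to 1000 bp. Their share was 0.147% from 1 to 2 kb, 0.198% from 2 to 5 kb and 0.225% from 5 to 10 kb, where it was highest. Farther out it was 0.209% from 10 to 50 kb, 0.1804% from 50 to 200 kb and 0.125% beyond. Low C+mC sites did not turn down with distance: their share was 0.121% within 500 bp and 0.785% beyond 200 kb. Whether the decline of members far from starts differs from the course of low C+mC sites was not tested. The median MspI signal of eligible sites also fell, from 50.5 within 500 bp of a start to 38.4 beyond 200 kb, and its part in the decline was not tested.

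Along genes, the share of members was lowest in the segment at the start and highest in the segment at the far end. In 8354 protein-coding genes of 10 kb or more with 1 listed start, each divided into 5 equal segments, members were 0.112% of eligible sites in the segment at the start (49 members), then 0.188%, 0.282%, 0.233% and 0.325% (139 members) in the following segments. Low C+mC sites were 0.536%, 0.904%, 0.933%, 0.970% and 0.807% in the same segments. Unmodified-like sites were 52.2% in the segment at the start and 28.7% in the segment at the far end.

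**Figure D2:**
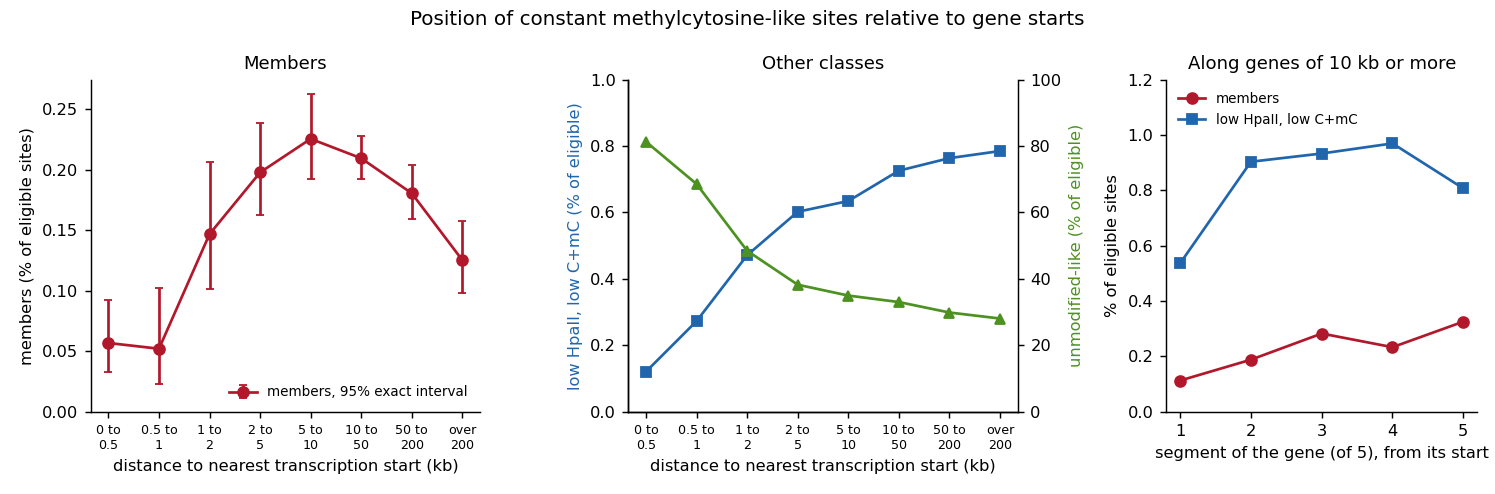
Share of eligible sites that are members by distance to the nearest transcription start in kb (left, points with 95% exact binomial intervals over sites), the same for low C+mC sites and unmodified-like sites on 2 axes (middle), and members and low C+mC sites by segment of the gene from its start (right). Members are at 0.0567% within 0.5 kb of a start and peak at 0.225% between 5 and 10 kb, and in genes they are at 0.325% in the far segment and 0.112% in the segment at the start.

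Taken by place, members were 0.228% of eligible sites inside protein-coding genes and over 1 kb from their ends (747 members), 0.115% within 1 kb of a gene end (61 members) and 0.146% elsewhere (440 members). Of the 465 members outside protein-coding spans, 102 lay in the span of another kind of gene and 363 in none. Outside every gene and over 10 kb from a start lay 22.5% of members and 29.7% of the other eligible sites. By gene length the share was 0.160% in genes below 10 kb, 0.227% from 10 to below 50 kb, 0.253% from 50 to below 100 kb, 0.213% from 100 to below 300 kb and 0.184% in longer genes. By chromosome it ran from 0.123% on chromosome 16 to 0.217% on chromosome 9.

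The position inside genes depended on the class of MspI signal at its upper end. The share in gene spans was 62.6% of members against 50.9% of other eligible sites from 20 to below 40, 62.5% against 54.1% from 40 to below 80, and 64.9% against 58.6% from 80 to below 160. Among the 42 members of 160 or more it was 50%, against 63.6% of other eligible sites. With the other eligible sites weighted to the members' classes of MspI, the difference in gene spans was 7.63 percentage points instead of 9.42. At starts it was -5.56 percentage points with weighting, instead of -4.64. Within 1 kb of gene ends no difference was seen from 20 to below 40, at 6.59% of members and 6.59% of other eligible sites. The shares there were 3.85% against 7.64% from 40 to below 80 and 5.28% against 11.3% from 80 to below 160. At 160 or more they were 11.9% against 17.5%.

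Density was taken as the number of other listed CCGG sites within 500 bp. At least 1 such site lay beside 54.7% of members and 48.4% of the other eligible sites, and the share of members was the higher on 17 of 19 autosomes. Members were 0.160% of eligible sites with no other site nearby, 0.195% with 1, 0.225% with 2, 0.228% with 3 and 0.283% with 4. Only 4 members, 0.134% of eligible sites, had 5 or more. Low C+mC sites ran the other way, at 0.874% with no other site, 0.548% with 1, 0.366% with 2, 0.251% with 3 and 0.172% with 4. Of all sites that met the HpaII limit, members were therefore 5.09% where no other site was near and 13.6% where 4 were.

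The course with density differed by place. Inside genes and over 1 kb from their ends members were 0.191%, 0.237%, 0.284%, 0.342% and 0.409% of eligible sites with 0, 1, 2, 3 and 4 other sites. Within 1 kb of gene ends they were 0.146%, 0.1797%, 0.0743%, 0.0414% and 0.0604%, the last from 2 members. The difference over all places rests on the C+mC limit, while the courses by place were not computed under other limits. The difference in the share with a neighbour, 6.35 percentage points, was 0.244 when C+mC/MspI was also bounded above, at the inverse of 0.8, and -4.15 when no C+mC limit was set. It was 10.5 when the limits were not applied to non-infarcted wild-type tissue, whose C+mC library stood apart, and 3.27 against other eligible sites weighted by MspI class. In the lowest class of MspI it had the opposite sign, with 37.9% of members and 44.4% of the other eligible sites beside another site. At an MspI of 160 or more the sign was also opposite, with 47.6% of the 42 members and 69.4% of the other eligible sites. In the classes between, the share was 55.3% of members against 49.2% from 40 to below 80, and 64.0% against 58.0% from 80 to below 160.

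**Figure D3:**
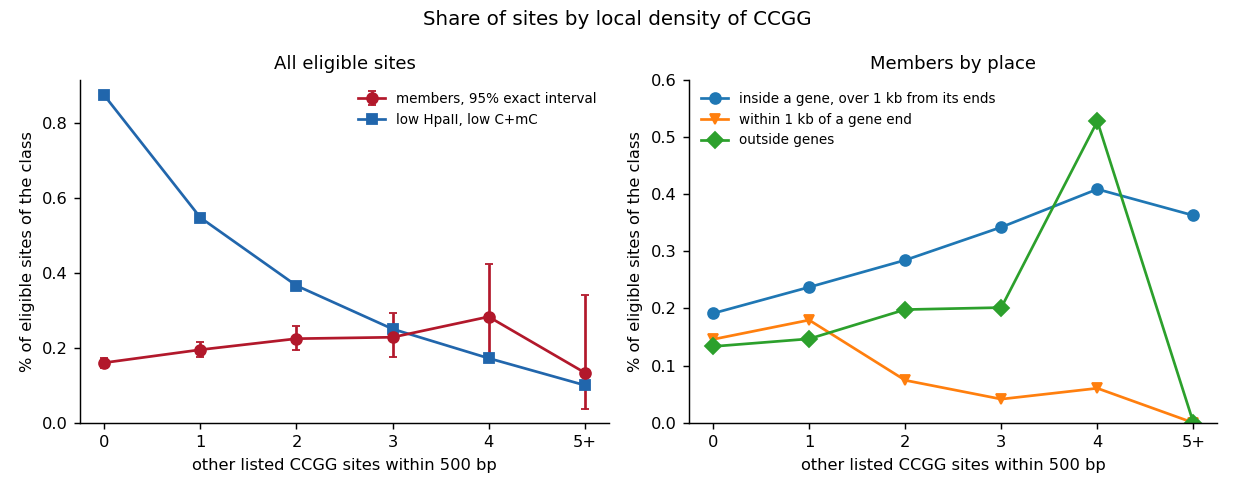
Percent of eligible sites that are members, and that are low C+mC sites, by the number of other listed CCGG sites within 500 bp (left; bars are 95% exact binomial intervals over sites), and members by place (right). The share of members is 0.160% with no other site and 0.283% with 4, while that of low C+mC sites is 0.874% and 0.172%; the last classes hold few sites, with 4 members at 5 or more.

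Most members lay far from the next one. The median of the 1229 gaps between members of one chromosome was 931364 bp and the smallest was 123 bp. Of the gaps, 7 were 500 bp or less and 37 were 10000 bp or less. Whether members lay closer together than eligible sites taken at random was not tested. Consecutive listed sites that were both members occurred 11 times, and no run was longer than 2. The tightest run lay in Bahcc1, a chromatin regulator, at chr11:120271821-120271947 (127 bp). Its first site had HpaII/MspI ratios of 0.117 and 0.0451 in infarcted and non-infarcted Neil3-null tissue and 0.0643 and 0.0555 in infarcted and non-infarcted wild-type tissue. Its second site had 0.129, 0.156, 0.163 and 0.129 in the same order. The other 4 of the 5 tightest lay outside protein-coding genes on chromosomes 17 and 2, at the far end of Smok2b, a sperm motility kinase gene, and in Scn8a, a voltage-gated sodium channel gene.

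Sites around members, which the rule did not choose, were also low in HpaII signal. At the 62 eligible sites within 100 bp of a member that were no members themselves, the median HpaII/MspI ratio was 0.324 in infarcted Neil3-null, 0.312 in non-infarcted Neil3-null, 0.262 in infarcted wild-type and 0.250 in non-infarcted wild-type tissue. Sites as near to any other eligible site had medians of 0.992, 1.01, 1.01 and 1.004. From over 100 to 250 bp (279 sites) the medians near members were 0.308, 0.336, 0.321 and 0.305, and from over 250 to 500 bp (382 sites) 0.468, 0.472, 0.427 and 0.441. The ratio then climbed with distance in every sample, to 0.542, 0.534, 0.558 and 0.528 from over 500 to 1000 bp and to 0.736, 0.724, 0.727 and 0.710 at 5 to 10 kb. There it lay beside the 0.751, 0.761, 0.752 and 0.735 of sites as far from any other eligible site.

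Near low C+mC sites the neighbours were low in HpaII signal too, with medians of 0.330, 0.304, 0.295 and 0.296 within 100 bp and 0.420, 0.421, 0.406 and 0.403 from over 100 to 250 bp. Low surroundings were thus not particular to members. Up to 250 bp from a member, the median C+mC/MspI ratio of the neighbours was below 0.8, the members' limit, in non-infarcted wild-type tissue and above it in the other samples. From over 250 to 500 bp the ratio was 1.01 in non-infarcted wild-type tissue. It was 0.923 and 0.893 in infarcted and non-infarcted Neil3-null tissue and 0.924 and 0.717 in infarcted and non-infarcted wild-type tissue from over 100 to 250 bp from a member, against 1.03, 1.02, 1.02 and 0.970 as near to any other eligible site.

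**Figure D4:**
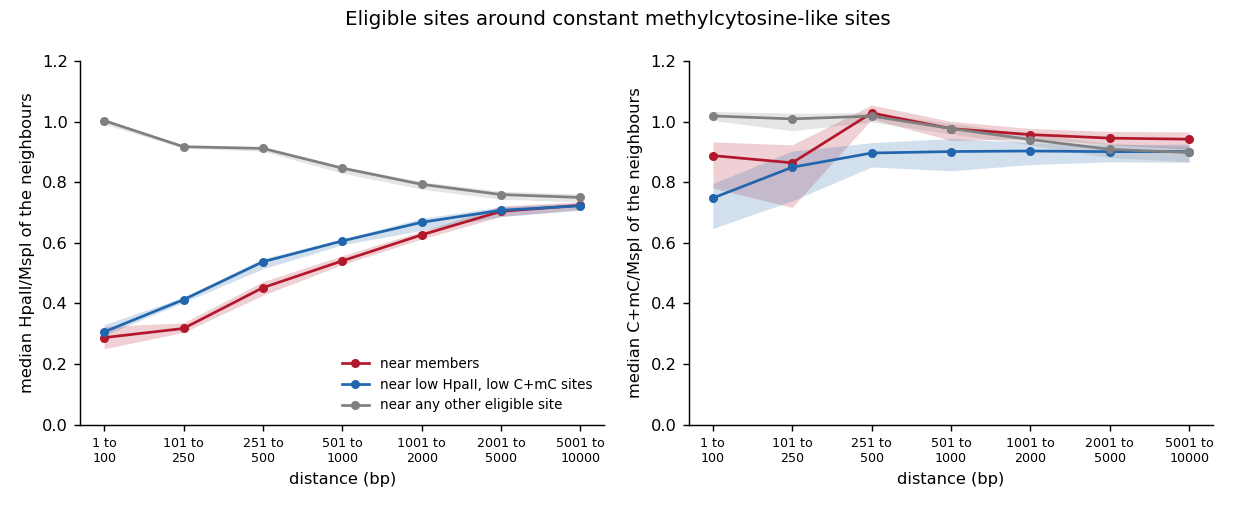
Median HpaII/MspI (left) and C+mC/MspI (right) of eligible sites by their distance in bp from a member, from a low C+mC site or from any other eligible site, leaving out sites of the class itself where it has a rule. Lines are means of the 4 sample medians and bands run from the lowest to the highest sample; HpaII/MspI near members goes from 0.250 to 0.324 within 100 bp to 0.710 to 0.736 at 5 to 10 kb.

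Members were spread thinly over genes. Of 20665 protein-coding autosomal genes, 18123 held an eligible site and 724 a member: 659 held 1, 55 held 2, 9 held 3 and 1 held 4. Genes with a member were larger, with a median of 39 eligible sites and 75598 bp, against 10 eligible sites and 20550 bp in genes with an eligible site and no member. A gene with more eligible sites has more chances to hold a member, so this difference in size is not read as a trait of these genes. Camta1, a calmodulin-binding transcription activator at chr4:151059523-151861768, held 4 members among 598 eligible sites. They lay between 85851 and 537225 bp from the lower end of its span, none near an end. The Camta1 member at chr4:151400560-151400563 had HpaII/MspI ratios of 0.126 and 0.115 in infarcted and non-infarcted Neil3-null tissue and 0.0638 and 0.150 in infarcted and non-infarcted wild-type tissue, beside a median of 0.708, 0.731, 0.709 and 0.697 over all eligible sites of the gene.

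Among the 9 genes with 3 members were Kif3c, Snx9, Mad1l1, Mtus2, Trpm3, Arhgap26, Gse1 and Wwox. Kif3c, a subunit of a kinesin motor at chr12:3365132-3406494, had the highest share of the genes with 20 or more eligible sites, 3 of 30. Its member at chr12:3366955-3366958 had HpaII/MspI ratios of 0.0631 and 0.0997 in infarcted and non-infarcted Neil3-null tissue and 0.0349 and 0.113 in infarcted and non-infarcted wild-type tissue, while the median over the gene was 0.689, 0.630, 0.675 and 0.642. Snx9, a sorting nexin of endocytosis, had 3 of 49, and Mad1l1, a protein of the spindle checkpoint, 3 of 152. The large gene Wwox, an oxidoreductase gene, had 3 of 533.

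Next in share came genes with 2 members. Rcl1, which acts in ribosomal RNA processing, and Slc19a1, the reduced folate carrier, had 2 of 21 each, and Aldh18a1, an enzyme of proline synthesis, 2 of 27. Zfp335, a zinc finger protein, had 2 of 29, Mroh2a 2 of 34, and Scap, which escorts the SREBP transcription factors, 2 of 35. Smaller genes with 2 members were Smok2b (2 of 4), Ddx41, an RNA helicase (2 of 11), Mcur1, a regulator of the mitochondrial calcium uniporter (2 of 12), Chpf, an enzyme of chondroitin synthesis (2 of 14), and Cdr2l (2 of 17). In Aldh18a1 the gene as a whole was low, with median HpaII/MspI ratios of 0.303, 0.294, 0.269 and 0.277, while in Zfp335 the medians were 0.743, 0.963, 0.645 and 0.950. Both Smok2b members lay within 300 bp of the end of its span and had mean MspI signals of 215 and 286. Smok2b has close relatives in the genome, so its signal may be shared with them and is uncertain.

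Gene lists were read against all protein-coding genes, in which members were 783 of 364019 eligible sites (0.215%). Lists for heart cell types and for DNA methylation held 0 to 2 members each, too few to place their shares above or below that value. Cardiomyocyte markers held 1 of 1247 eligible sites (0.0802%), in Cacna1c, the cardiac calcium channel gene. Endothelial markers held 2 of 804 (0.249%), in Vwf, the von Willebrand factor gene, and Flt1, a VEGF receptor gene. Leukocyte markers held 0 of 364, which allows a share of up to 0.824%, and fibroblast and smooth muscle markers 0 of 426, which allows up to 0.704%. The Cacna1c member at chr6:118948375-118948378 had HpaII/MspI ratios of 0.117 and 0.120 in infarcted and non-infarcted Neil3-null tissue and 0.0860 and 0.119 in infarcted and non-infarcted wild-type tissue. The Vwf member at chr6:125643313-125643316 had 0.0526 and 0.133 in infarcted and non-infarcted Neil3-null tissue and 0.0476 and 0.116 in infarcted and non-infarcted wild-type tissue. The Flt1 member at chr5:147617020-147617023 had 0.132 and 0.0834 in infarcted and non-infarcted Neil3-null tissue and 0.144 and 0.174 in infarcted and non-infarcted wild-type tissue. The Vwf and Flt1 members were both lower in infarcted than in non-infarcted wild-type tissue, while the Neil3-null samples had opposite orders at these members. The HpaII signals behind these orders ran from 3.52 to 10.75, where low signals fall into the separate bands given above. With 1 sample per group and ratios bounded by the rule, these orders are not read as a difference. In tissue DNA, fewer cells of a type and a different methylation level within them cannot be told apart. At the ends of leukocyte marker genes the median HpaII/MspI ratio was 1.29 and 1.11 in infarcted and non-infarcted Neil3-null tissue and 1.49 and 1.14 in infarcted and non-infarcted wild-type tissue. At the ends of cardiomyocyte marker genes it was 1.30, 1.48, 1.26 and 1.47. The leukocyte value was higher and the cardiomyocyte value lower in the infarcted sample of both genotypes, and their part in the membership was not tested.

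Enzymes that write or remove DNA methylation held 2 of 582 (0.344%), a site in Dnmt3b, a de novo methyltransferase, and a site in Tet3, which oxidizes 5-methylcytosine. The Dnmt3b member at chr2:153673434-153673437 had HpaII/MspI ratios of 0.110 and 0.0988 in infarcted and non-infarcted Neil3-null tissue and 0.0826 and 0.125 in infarcted and non-infarcted wild-type tissue. The Tet3 member at chr6:83403146-83403149 had 0.119, 0.189, 0.181 and 0.170 in the same order. Imprinted genes held 1 of 929 (0.108%), in Sgce, a sarcoglycan gene expressed from the paternal allele. Housekeeping genes (0 of 263), genes of mitochondrial oxidative metabolism (0 of 517), developmental homeobox genes (0 of 1180), the Hox clusters (0 of 227) and clustered protocadherins (0 of 208) held none, and each of these counts allows a share above 0.215%. In the Hox clusters 96.0% and in the developmental homeobox genes 73.1% of eligible sites were unmodified-like, against 36.8% over all protein-coding genes.

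Germline genes, whose promoters are commonly methylated in somatic tissue, held 0 members of 506 eligible sites, which allows up to 0.726% by the same exact interval. At their ends 35.4% of 130 eligible sites were unmodified-like, against 68.2% at the ends of all protein-coding genes, and the median HpaII/MspI ratio there was 0.741, 0.766, 0.721 and 0.730. Zinc finger genes named Zfp held 14 of 4323 (0.324%), with 2 each in Zfp978 and Zfp335. Solute carrier genes held 15 of 7846 (0.191%) and collagen genes 6 of 2454 (0.244%), 2 of them in Col6a6. Cadherin genes held 3 of 2003, potassium channel genes 3 of 2470 and olfactory receptor genes 1 of 396, in Olfr283. With counts this small, no order among these lists is read.

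A few members had very high MspI signal. The highest was 1156 (mean of 4 samples) at chr3:137982857-137982860 in Gm19708, with HpaII signals of 167.8 and 173 in infarcted and non-infarcted Neil3-null tissue and 167.6 and 195 in infarcted and non-infarcted wild-type tissue, and MspI signals of 1090, 1186, 1193 and 1156. In Lifr, the receptor of leukemia inhibitory factor, the member at chr15:7120167-7120170 had MspI signals of 1102 and 967 in infarcted and non-infarcted Neil3-null tissue and 1075 and 1070 in infarcted and non-infarcted wild-type tissue, beside HpaII signals of 169, 167, 185 and 210. The 42 members with a mean MspI of 160 or more lay in 35 places. The place with the most, 5, ran from chr1:88215811-88302587 over Mroh2a, Hjurp and genes of the Ugt1a cluster. The listed sites there, with 10 kb on either side, had a median MspI signal of 237, 244, 192 and 219, against 31.5, 31.7, 26.0 and 31.5 over all autosomal sites, and the eligible ones a median HpaII/MspI ratio of 0.293, 0.288, 0.278 and 0.308. Whether these places exist in more copies than the reference shows was not tested.

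Since a site had to pass in all 4 samples, differences between the samples at members are bounded by the rule and are given as a description. The median highest over lowest HpaII/MspI ratio among the 4 samples was 1.90 at members and 1.69 at the other eligible sites. For C+mC/MspI it was 1.41 at members and 1.69 at the others. The highest HpaII/MspI ratio of a member fell in infarcted Neil3-null tissue in 306 members, in non-infarcted Neil3-null in 358, in infarcted wild-type in 289 and in non-infarcted wild-type in 295. The lowest C+mC/MspI ratio fell there in 216, 342, 238 and 452.

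Infarct and genotype were fitted together across all 682441 eligible sites with limma, with 2 samples on each side of each main effect and 1 residual degree of freedom. After Benjamini-Hochberg adjustment by limma no site was called for HpaII/MspI (0 of 1248 members and 0% of all eligible sites) for infarct or for genotype. At an unadjusted limma p under 0.05, 74 members (5.93%) passed for infarct and 85 (6.81%) for genotype, against 7.05% and 5.69% of all eligible sites. For C+mC/MspI limma called 0 of 1248 members, against 0.0173% of all eligible sites for infarct and 0.0491% for genotype, and at an unadjusted limma p under 0.05 there were 8 and 9 members, against 6.7% and 6.87% of all eligible sites. The rule used these ratios, so nothing is read from these counts.

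The median log2 difference in C+mC/MspI between infarcted and non-infarcted tissue was 0.08 at members, with 800 of 1248 members (64.1%) higher in infarcted tissue, against 53.8% of all eligible sites. The rule used this ratio, so nothing is read from this difference. The lowest C+mC/MspI ratio of a member fell most often in the 2 non-infarcted samples, as given above. Of these 2, the non-infarcted wild-type sample holds the C+mC library that stood apart, and the part of this library was not tested. Between Neil3-null and wild-type tissue the median was 0.01, with 638 members (51.1%) higher in Neil3-null tissue, against 54.0% of all eligible sites. For HpaII/MspI the medians were -0.02 for infarct and 0.06 for genotype, with 596 members (47.8%) higher in infarcted tissue, against 49.8% of all eligible sites, and 697 (55.8%) higher in Neil3-null tissue, against 51.5%.

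In the intervals where 9.84% to 21.7% of the sites of wild-type samples were missing from both Neil3-null samples, 1 of 2517 eligible sites was a member on chromosome 8 between 29 and 44 Mb, 0 of 905 between 51 and 59 Mb around Neil3, and 2 of 2100 in an interval of chromosome 1, beside 0.183% of all eligible sites. Counts this small are not read as a difference. Membership needs a listing in all 4 samples, so sites missing from the null samples could not be members. Total signal per library ran from 34161766 to 43985354, and the depth in tags is unknown.

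The number of members depended on the scaling and the limits, while the direction of the differences in position did not under the scalings tried. With the HpaII and C+mC libraries rescaled so that housekeeping gene ends had a median ratio of 1, 4074 sites met the rule, of which 397 were among the 1248. In that set 61.6% lay in protein-coding genes, against 53.3% of other eligible sites, and 1.90% lay within 1 kb of a start, against 6.64%. With the 3 libraries of each sample at equal totals 1577 sites met the rule, 1229 of them members.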

How the data were processed

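HMST-seq values of 4 left ventricle samples, 1 per group, were analysed. For each sample the authors deposited, for each of 3 libraries, a normalized signal at CCGG positions. The build was mm10, per the submitters' processing notes. The sources used here do not give the normalization, the aligner, the filters or any pooling. The files give no tag counts, so depth is unknown, and intervals cover the number of sites only. Deposited positions count from 0; here coordinates count from 1, tested against CCGG in the RefSeq promoter windows, where 15952 of 43693 motifs matched at that offset and none at the adjacent ones.

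Gene spans (20665 protein-coding genes) and promoter windows were from RefSeq on GRCm38.p6. Starts on 1 autosome were not used here. The members, the gene lists, the comparison classes and the rule for named genes were chosen with earlier results of these data known. Named genes were those with the most members (15), those with the highest share among genes with 20 or more eligible sites (10), up to 3 per list, and the 5 runs and 5 sites described. Runs tied in length were ordered by span. No gene had 3 members within 1 kb of an end. A gene that this rule names is not reported here. Transcription starts and the high-signal sites were examined after seeing the data.

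The additive model of infarct and genotype used R 4.3.3 and limma 3.58.1 on log2 ratios with a pseudocount of 1, with Benjamini-Hochberg adjustment at 0.05 over all eligible sites. It was tested on simulated HpaII/MspI data with 200 sites changed by 4 on the log2 scale for infarct. There 193 of the 200 were recovered, with 35 false calls for infarct and 4 calls for genotype, which was not changed. The false share of the infarct calls was above the 0.05 that the adjustment aims at, although the simulated variances came from the fitted model itself. Smaller changes and C+mC/MspI data were not simulated, so the simulation does not cover the C+mC/MspI calls. Shares have no test, since sites of a sample are not replicates. Alternatives were other limits on HpaII, C+mC and MspI, each sample left out, other scalings of the libraries, other windows, and other pseudocounts and filters in limma. Other steps used Python 3.11.15, numpy 2.4.6, pandas 2.3.3, scipy 1.17.1 and matplotlib 3.10.9.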

Additional observations from a re-analysis of the deposited data

How the results depend on the processing

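The number of members was 364 at a minimum mean MspI of 80, 49 and 5298 at HpaII/MspI limits of 0.1 and 0.3, 2180 and 664 at C+mC/MspI minimums of 0.7 and 0.9, 477 with C+mC/MspI also bounded above, 19933 with no minimum on C+mC/MspI and 4074 after rescaling on housekeeping gene ends, against 1248 as reported. Genes with a member numbered 228, 32, 2426, 1173, 407, 290, 6004 and 2033 in the same order, against 724. With the limits applied to 3 samples only, members numbered 1969 to 2727, genes with a member 1083 to 1400, and the difference in the share of sites with a neighbour within 500 bp was 3.84 to 10.5 percentage points, the highest without non-infarcted wild-type tissue. Differences below are members minus other eligible sites, in percentage points. The difference in gene spans, 9.42 as reported, was 4.33 at a minimum MspI of 80 and was positive under every alternative run. The difference at gene ends, -2.87 as reported, was -4.16 and -5.57 at minimums of 40 and 80 and -4.58 without a C+mC minimum. Within 1 kb of starts it was -4.64 as reported, -5.51 and -9.09 at those minimums, -5.38 at a C+mC minimum of 0.9 and -5.56 with other sites weighted by MspI class. Both stayed negative under every alternative run. Within the class of MspI from 20 to below 40, however, the gene-end share was 6.59% of members and 6.59% of other eligible sites. The difference in sites with a neighbour, 6.35 as reported, was 10.8 at a HpaII limit of 0.1, 0.244 with C+mC/MspI also bounded above and 3.27 with weighting, and turned to -4.15 without a C+mC minimum. The causes were not tested. Leaving out sites with a mean MspI of 160 or more, added after seeing the data, left 1206 members. limma called 0 members under every setting run, while its calls over all eligible sites ranged from 0 to 66 for HpaII/MspI and from 19 to 335 for C+mC/MspI. With 1 residual degree of freedom in limma and unknown depth, small differences between samples could not be detected here. No paired analysis was possible because the groups share only 1 replicate number and the labels do not say which tissues share hearts, while the additive limma model already compares the tissues within each genotype.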

Other observations

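Chromosome X was outside the rule. Of its 6827 sites that were listed in all 4 samples with a mean MspI of 20 or more, 2 met the same limits (0.0293%, exact 95% binomial interval 0.00355% to 0.106%, for counting error over sites only), beside 0.183% of the autosomal sites. On the autosomes the share of members rose with MspI signal, and the X sites were not matched to autosomal sites in this signal. The difference was not tested.

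Sites that passed the HpaII limit but neither C+mC limit in all samples, 14070 in number, outnumbered members and low C+mC sites together. Members passed the HpaII limit with a median highest over lowest HpaII/MspI ratio of 1.90 over the 4 samples, against 2.10 at low C+mC sites and 1.497 at unmodified-like sites.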
